A study of Mus musculus with 8 samples.

Results

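Metaphase II (MII) oocytes were compared with in vitro epiblast cells (EpiC) across all genes. The comparison rests on 4 of the 8 mouse RNA-seq libraries of the study, 2 of MII oocytes and 2 of EpiC. The other 4, from germinal vesicle oocytes and embryonic stem cells, entered the filter on low counts, the scaling and the estimate of the spread between libraries. Of 48440 genes listed in the deposited tables, 25016 passed the filter on low counts over all 8 libraries and were tested. Of these, 21225 were also tested with the MII and EpiC libraries alone. All libraries were stranded paired-end TruSeq libraries of total RNA. The MII label describes mice primed with 5 units of PMSG 48 h beforehand and germinal vesicle oocytes collected with 2 µM milrinone, and it names no maturation step. EpiC were derived from embryonic stem cells grown in 15% serum with LIF, PD0325901 (a MEK inhibitor) and CHIR99021 (a GSK3 inhibitor). After 24 h on the plate these additions were withdrawn, and the cells were taken about 56 h later. Mouse strain, stem cell line, number of oocytes and any poly(A) selection were not given in the sources used here. Nor is it said whether both libraries of a group came from separate animals or cultures, and p-values measure only the spread between these libraries.

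An MII oocyte is arrested at metaphase of the second meiotic division until fertilisation. It does not transcribe: its mRNA was made during oocyte growth, and its control lies in translation, poly(A) tail length and decay. Many of its stored mRNAs carry cytoplasmic polyadenylation elements, short U-rich motifs near the 3′ end that CPEB proteins bind. EpiC, by comparison, are transcribing cells that divide fast and are used as a model of the early postimplantation epiblast.

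Oocyte identity was read from 14 marker genes, all of which passed as higher in MII, against a background of 28.4% of all genes tested called higher and 39.4% called lower. They summed to 26192 and 35959 TPM in MII and 28.0 and 20.4 TPM in EpiC. The growth factor gene Gdf9 measured 5771 and 8516 TPM in MII, against 0.133 and 0.662 TPM in EpiC. The egg coat gene Zp2 measured 56.8 and 116 TPM in MII, against 0.0143 and 0.0727 TPM in EpiC. Of 14 epiblast markers, 1 was higher, 11 were lower and 2 did not pass (median log2 fold change −8.07, or −6.96 with zero groups at their bound). Utf1, a chromatin-bound factor of pluripotent cells, measured 0 and 0 TPM in MII, against 299 and 198 TPM in EpiC. Pou5f1, the most abundant of these markers, was present in both groups, at 336 and 362 TPM in MII, against 1117 and 690 TPM in EpiC. Its log2 fold change was −0.15 ± 0.40, and it was not called. The single marker called higher, the E-cadherin gene Cdh1, measured 184 and 259 TPM in MII, against 335 and 256 TPM in EpiC, so its TPM overlapped. Its log2 fold change was 1.07 ± 0.36, it lost its call without MII replicate 2 (0.95), EpiC replicate 1 (1.12) or EpiC replicate 2 (1.04), and it was −0.42 with limma on log2(TPM + 1).

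Markers of other cells were measured as well. Of 16 cumulus and granulosa genes, 5 were higher, 4 were lower and 7 did not pass (median log2 fold change 0.25). Their sum was 477 and 779.7 TPM in MII and 62.8 and 78.8 TPM in EpiC, nearly all of it from Serpine2, a secreted protease inhibitor, at 423 and 715 TPM in MII, against 21.3 and 42.9 TPM in EpiC. The aromatase gene Cyp19a1 followed at 47.4 and 44.5 TPM in MII, against 0.0267 and 0.126 TPM in EpiC. The other higher members were Cyp11a1, a steroid synthesis gene, at 1.94 and 13.9 TPM in MII, against 0.350 and 0.396 TPM in EpiC, and the gonadotropin receptor genes Lhcgr, at 0 and 0.752 TPM in MII, against 0 and 0.00453 TPM in EpiC, and Fshr, at 0 and 0.140 TPM in MII, against 0 and 0 TPM in EpiC. The 4 lower members included Has2, at 1.07 and 0.632 TPM in MII, against 19.9 and 7.53 TPM in EpiC. Fst, also lower, measured 0.227 and 0.631 TPM in MII, against 13.2 and 10.9 TPM in EpiC. Lower calls numbered 1 without MII replicate 1, 0 without MII replicate 2 and 2 without EpiC replicate 2, and higher calls 3 without MII replicate 2 or EpiC replicate 2. The Fshr call was also lost with DESeq2 (6.96), without MII replicate 2 and without EpiC replicate 2 (7.65). The Lhcgr call was lost with DESeq2 (8.40), without MII replicate 2 (−2.22), without EpiC replicate 1 (7.55) and without EpiC replicate 2 (10.3). Foxl2, a granulosa transcription factor, measured 0 and 0.0239 TPM in MII, against 0.0818 and 0.209 TPM in EpiC, and was not called. Fibroblast markers, 10 of 12 tested, summed to 4.06 and 4.43 TPM in MII and 149 and 66.5 TPM in EpiC, with 1 higher and 8 lower in MII. The lower ones numbered 4 when either MII library was left out and 4 on the TPM scale. Blood and macrophage markers, 4 of 10 tested, summed to 4.68 and 3.72 TPM in MII and 4.98 and 13.5 TPM in EpiC, with 1 higher and 0 lower, and the higher call was lost without MII replicate 1, EpiC replicate 1 or EpiC replicate 2. Markers of extraembryonic cells gave 2 higher and 7 lower of 14. Germ layer markers gave 3 higher and 7 lower of 11, against 2 higher and 3 lower on the TPM scale. The part of such cells in any result was not tested.

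Total estimated counts were 75157505 and 196788239 in MII and 47463546 and 116034226 in EpiC. The gene model Gm42418, known to collect ribosomal RNA reads, held 0.151% and 3.03% of these counts in MII and 0.0255% and 22.7% in EpiC. It was left out of library sizes, scaling and tests. Replicate 2 held more Gm42418 than replicate 1 in each of the 4 groups, and was the deeper library in each. Germinal vesicle oocytes had 0.022% and 1.655% of counts in it, and embryonic stem cells 0.031% and 14.7%. EpiC replicate 2 held the most. The deposited TPM include that gene model, which held 0.0213% of the TPM in EpiC replicate 1 and 17.0% in EpiC replicate 2. The TPM values of other genes are lowered by that share. Its part in other differences between the EpiC libraries was not tested. Across genes, log2(TPM + 1) correlated at 0.981 between the MII libraries and at 0.922 between the EpiC libraries, and at 0.383 and 0.360 between MII and EpiC libraries of the same number. Trimmed mean (TMM) scaling factors were 0.398 and 0.393 in MII and 1.49 and 1.71 in EpiC.

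Of the 25016 genes tested, 7112 were called higher in MII and 9858 lower (edgeR quasi-likelihood test, Benjamini-Hochberg adjusted p under 0.05), which leaves 8046 not called. Calls in either direction made up 67.8% of genes, and the TPM of the groups did not overlap for 86.4%. Among genes with a protein-coding transcript, 5716 were higher and 7199 lower of 17481. Over all genes tested, log2 fold changes had a median of −1.23, or −0.91 with groups at 0 counts set to their bound. With such groups at their bound, 2334 called genes lay above a log2 fold change of 5 and 2548 below −5. In 76 genes with at least 20 mean TPM in MII, both EpiC libraries had 0 counts. In 180 genes with at least 20 mean TPM in EpiC, both MII libraries had 0 counts.

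These calls are relative to the scaling. Without MII replicate 1, MII replicate 2, EpiC replicate 1 or EpiC replicate 2, the higher calls numbered 6960, 6599, 6550 and 6527, and the lower calls 7088, 7015, 9625 and 7793. With limma on log2(TPM + 1), 4372 genes were higher and 9769 lower, so 30.9% of the calls were higher against 41.9% with TMM. The TPM scale moved the median log2 fold change by −1.09, so a gene with equal TPM in both groups tends to a positive log2 fold change on the TMM scale. Log2 fold changes below are on the TMM scale of counts with an approximate SE, levels are TPM, and adjusted p-values are from the edgeR test. Neither scale gives RNA per cell.

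The pools were built differently. Genes called higher in MII made up 92.9% and 90.6% of the TPM in MII, against 18.6% and 17.0% in EpiC. Genes called lower made up 1.57% and 2.10% in MII, against 65.8% and 61.7% in EpiC. The direction of these shares follows from the calls, which used the same libraries, and is no independent evidence. Few genes carried much of the MII pool: 167 and 184 genes held 50% of the TPM in MII, against 331 and 285 in EpiC. At least 1 TPM was reached by 10271 and 10907 genes in MII, against 14663 and 16194 in EpiC. Gm42418 was left out of these shares. Without it, the 100 most abundant genes held 43.6% and 42.3% of the TPM in MII, against 31.0% and 34.7% in EpiC. With it kept, they held 43.5% and 44% in MII, against 31% and 45.65% in EpiC. EpiC replicate 2 then lay above both MII libraries.

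**Figure D1:**
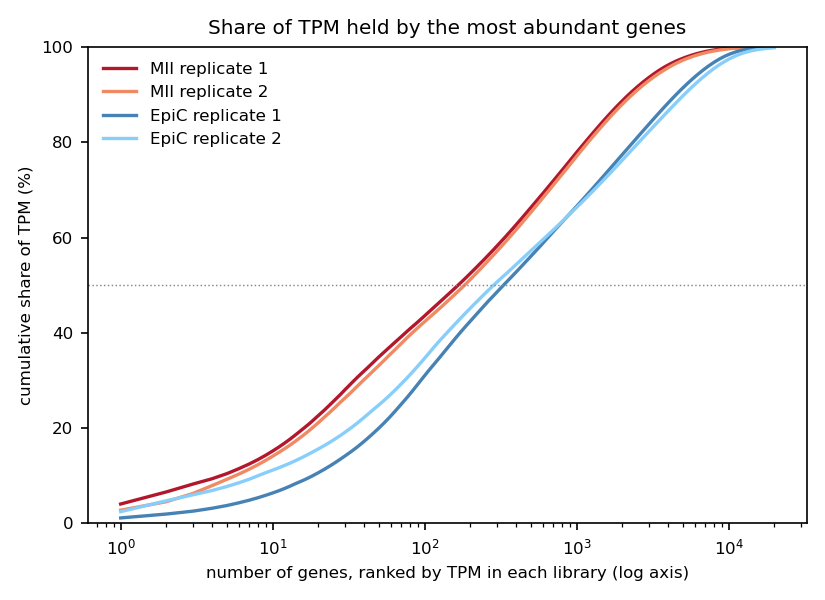
Cumulative share of TPM (vertical axis, %) against the number of genes ranked by TPM within each library (horizontal log axis), without Gm42418, 1 line per library. Both MII lines lie above both EpiC lines except at 2 genes, where EpiC replicate 2 (4.75%) exceeds MII replicate 2 (4.55%). The line at 50% is crossed at 167 and 184 genes in MII and at 331 and 285 genes in EpiC.

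Transcript classes differed too, in shares of TPM that were not tested. Transcripts annotated as protein coding held 80.05% and 78.6% in MII, against 76.4% and 63.0% in EpiC. Processed pseudogene transcripts held 1.33% and 1.71% in MII, against 6.29% and 6.60% in EpiC. Retained-intron transcripts, which keep an unspliced intron, held 2.01% and 2.25% in MII, against 4.36% and 5.37% in EpiC. In each of these 3 classes the groups did not overlap. Small nucleolar RNA genes, whose products guide rRNA modification, held 0.0778% and 0.0702% in MII, against 1.07% and 1.599% in EpiC.

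The most abundant genes of the MII pool were named by level. After the mitochondrial gene mt-Atp8, at 40617 and 26868 TPM in MII, against 8190 and 10443 TPM in EpiC, came Gm10925, a pseudogene model whose sequence may share reads with other loci and whose 25387 and 16918 TPM in MII, against 122 and 43.3 TPM in EpiC are therefore uncertain. Zbed3, a component of the subcortical maternal complex, measured 16545 and 15938 TPM in MII, against 25.1 and 16.0 TPM in EpiC. The linker histone gene H1foo measured 10478 and 17229 TPM in MII, against 0 and 0.0579 TPM in EpiC. Bcl2l10, a Bcl2-family survival gene, measured 9325 and 10606 TPM in MII, against 0 and 0.132 TPM in EpiC. The homeobox gene Obox2 measured 8348 and 9244 TPM in MII, against 0.142 and 0.174 TPM in EpiC. Each of these genes, mt-Atp8 included, was called higher. Apart from mt-Atp8, no EpiC library exceeded 122 TPM for any of them.

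Of the 10 genes of highest mean level in EpiC, 5 were mitochondrial, 3 were translation genes and 2 were noncoding models. Both noncoding models stood above Eef1a1 in EpiC replicate 2 and below it in EpiC replicate 1. Eef1a1, the elongation factor that delivers aminoacyl-tRNA to the ribosome, measured 58.1 and 106 TPM in MII, against 11422 and 6916 TPM in EpiC, and fell by 5.31 on the log2 scale. Rplp1, a stalk protein of the ribosome, measured 19.3 and 34.1 TPM in MII, against 6049 and 6112 TPM in EpiC, and fell by 6.35. The microRNA model Mir6236 measured 1690 and 2986 TPM in MII, against 3302 and 20461 TPM in EpiC. Its groups did not overlap, it was not called, and its log2 fold change of −0.93 ± 0.91 became 1.33 without EpiC replicate 2, the library rich in Gm42418.

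The largest differences among protein-coding genes with at least 20 TPM were sought next. All 12 of the highest fitted log2 fold changes belonged to genes that reached at least 266 TPM in each MII library. Their order rests on fitted values, which are no bounds where EpiC had 0 counts. Btg4, an adaptor that recruits the CCR4-NOT deadenylase to mRNA, measured 6766 and 5095 TPM in MII, against 0 and 0 TPM in EpiC. That is at least 324572-fold higher in MII, against a floor of 3 counts in each EpiC library. Oog3, of an oocyte gene family, measured 3781 and 2946 TPM in MII, against 0 and 0 TPM in EpiC and was at least 272041-fold higher. The oocyte-secreted protein gene Oosp3 measured 4472 and 3071 TPM in MII, against 0 and 0 TPM in EpiC, at least 110969-fold higher. Omt2b, Omt2a, Oosp1, Rfpl4, Khdc1b, Gm13023, H1foo, Nlrp4b and Oog1 completed the 12, with bounds between 36107 and 254211-fold where EpiC had 0 counts. Several of these genes have close relatives, between which the assignment of reads is uncertain.

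The 12 lowest fitted log2 fold changes came from genes with 0 counts in both MII libraries. Notch3, a Notch receptor, measured 0 and 0 TPM in MII, against 50.4 and 45.8 TPM in EpiC, at least 2903-fold lower in MII. Nodal, the TGFβ-family ligand of the epiblast, measured 0 and 0 TPM in MII, against 101 and 109.7 TPM in EpiC, at least 1583-fold lower. Fgf4, the growth factor that drives exit from naive pluripotency, measured 0 and 0 TPM in MII, against 80.5 and 40.0 TPM in EpiC, at least 1268-fold lower. The lowest EpiC value of Notch3, Nodal and Fgf4 was 40.0 TPM, in Fgf4. Nefl (neurofilament light chain), Cldn6 (a tight junction claudin), Mme (neprilysin), Reg2, Tagln (an actin-binding protein), Utf1 and Zscan4e followed, with bounds between 1025 and 2003-fold. Eno1b and Gm10184 also belong to this group, and both resemble other genes so closely that their levels are uncertain.

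Sequences at the 3′ ends of mRNAs, which the comparison of levels did not use, were read from the matching reference transcripts. For 14783 of 17481 coding genes (84.6%) a protein-coding transcript of the tables matched GENCODE M21 by ID and length, and the most abundant such transcript was used. In the last 100 bases of 3′ UTRs of at least that length, TTTTAT or TTTTAAT, the DNA letters of 2 common cytoplasmic polyadenylation elements, occurred in 26.6% of 4470 genes called higher, against 13.4% of 5463 called lower and 15.9% of 3484 not called. The 95% Wilson intervals were 25.3 to 27.9% for higher and 12.5 to 14.3% for lower genes. They cover counting error only, and genes are not independent. Among the 200 higher genes of highest MII level, the share was 44.0%, against 25.8% in the other 4270 higher genes. The transcript strand alone was searched.

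Base composition moved with this share. The same last 100 bases had a median GC content of 33.0% in higher genes, against 38.0% in lower and 37.0% in uncalled genes. TATTTT, the letters of the first motif reversed, occurred in 23.4% of higher, 14.0% of lower and 16.1% of uncalled genes, and in 28.5% of the 200 most abundant higher genes. TTTTAT alone occurred in 20.3%, 10.8% and 12.7%, and in 36.5% of those 200. Both motifs can overlap, as a run of TTTTATTTT holds both. The polyadenylation signal AATAAA occurred in 71.4%, 62.0% and 64.2%. Higher genes had a median 3′ UTR of 891 bases, against 720 in lower and 703 in uncalled genes. The part of base composition in the motif shares was not tested.

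**Figure D2:**
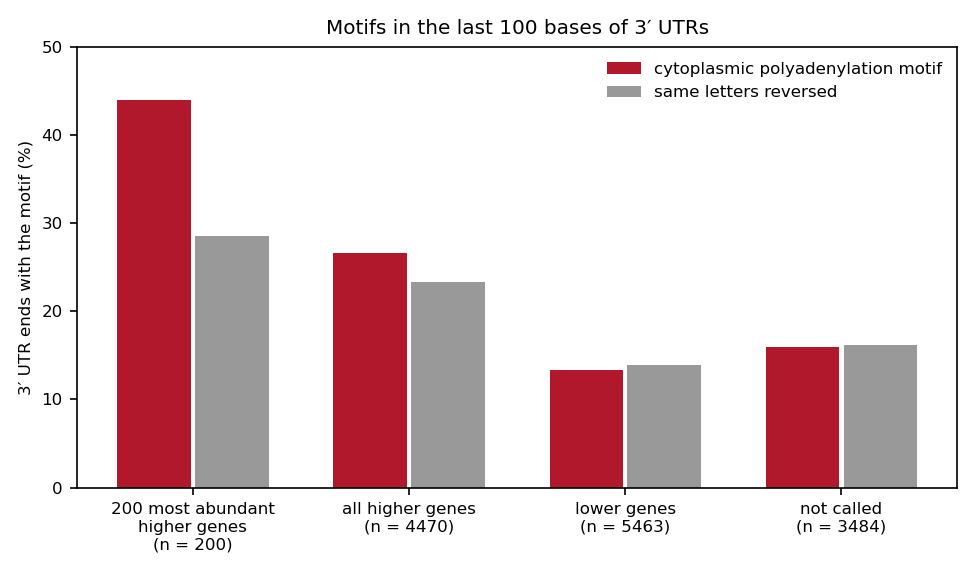
Share of 3′ UTR ends (vertical axis, %, last 100 bases) with a cytoplasmic polyadenylation motif (red) or with the letters of the shorter motif reversed (grey), for the 200 higher genes most abundant in MII, all higher genes, lower genes and genes not called. The red bars stand at 44.0%, 26.6%, 13.4% and 15.9%, and the grey bars at 28.5%, 23.4%, 14.0% and 16.1%.

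The motif was present in 7 of the 10 genes with such a UTR among the 12 highest, and in 0 of 6 among the 12 lowest. Omt2a and Omt2b, both among the 7, had the same 26 bases around the motif. The windows below show how it lies in 5 of those 7 and in Zbed3, Bcl2l10, Wee2 and Tet3, abundant MII mRNAs that were described after their values were known. Each is 26 bases of the 3′ UTR, 5′ to 3′, with the motif in capitals, and AATAAA in capitals where the window holds it.
Oog3: aaatgtgttaactttgTTTTATtttt
Oosp3: acctataAATAAAacaTTTTATtgta
Omt2b: taacggTTTTATAATAAAtaaaagtt
Khdc1b: tggaacattaaagtttgTTTTATtta
H1foo: tgaagcTTTTATtgtctaataagctg
Zbed3: tttttAATAAAcTTTTATttatctgc
Wee2: AATAAAgaTTTTATcttatccaaaga
Tet3: AATAAATTTTATatttattttttgca
Bcl2l10: atacatTTTTAATaacttcaaattct

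On GRCm38 these windows lie at chr4:144157557-144157582 (minus strand) for Oog3, chr19:11711833-11711858 (plus strand) for Oosp3, chr9:78329561-78329586 (plus strand) for Omt2b, chr1:21386348-21386373 (plus strand) for Khdc1b, chr6:115950163-115950188 (plus strand) for H1foo, chr13:95337816-95337841 (plus strand) for Zbed3, chr6:40466788-40466813 (plus strand) for Wee2, chr6:83362379-83362404 (minus strand) for Tet3, and chr9:75351585-75351610 (plus strand) for Bcl2l10. In Oosp3, Zbed3, Wee2 and Tet3 the polyadenylation signal precedes the motif, and in Omt2b it follows directly. A match is a description of the letters and not of a site in use. Tet3, the 5-methylcytosine oxidase, measured 823 and 761 TPM in MII, against 5.16 and 5.502 TPM in EpiC, and Wee2, a kinase that holds Cdk1 inactive, measured 1029 and 788 TPM in MII, against 0.0108 and 0.00796 TPM in EpiC.

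Many functions are shared between a germline gene and a general relative, and 21 such pairs were compared. Ldhb, Tet3 and Elavl2 are not germline genes in a strict sense, and stand for members known to be abundant in oocytes. The germline member was called higher in MII in 17 pairs, lower in 3 and not called in 1. These members were chosen as germline or oocyte genes, so their direction and their shares are no independent evidence. The general member was lower in 9, higher in 7 and not called in 5. Of all genes tested, 28.4% were called higher and 39.4% lower. In 7 pairs the germline member was higher and the general one lower. In 11 pairs the germline member held over 50% of the pair's TPM in both MII libraries and under 50% in both EpiC libraries. These shares compare levels per transcript length.

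The cell cycle pairs of Wee2, Aurkc and Fbxo43 were led by the germline member in MII, and the cohesin pairs, given below, were not. Wee2 held 99.99% and 99.9% of the summed TPM of the pair in MII, against 0.0360% and 0.0453% in EpiC, beside Wee1. Aurkc, the chromosomal passenger kinase of germ cells, held 99.6% and 98.9% of the summed TPM of the pair in MII, against 2.03% and 2.38% in EpiC, beside Aurkb. Wee1 itself measured 0.130 and 0.620 TPM in MII, against 30.0 and 17.6 TPM in EpiC, and fell by 4.43 on the log2 scale. Aurkb measured 3.31 and 10.2 TPM in MII, against 77.5 and 50.7 TPM in EpiC, and fell by 1.55, a call that was lost without MII replicate 1 (−0.74) or EpiC replicate 1 (−1.37). Fbxo43, the inhibitor of the anaphase-promoting complex that keeps the metaphase II arrest, measured 232 and 189 TPM in MII, against 0.136 and 0.167 TPM in EpiC. Its general relative Fbxo5 measured 1.27 and 3.30 TPM in MII, against 91.7 and 53.1 TPM in EpiC. Groups did not overlap at any of these 6 genes, which held for 86.4% of all genes tested.

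RNA-binding pairs moved as well. The poly(A)-binding protein gene Pabpc1 measured 1.81 and 4.08 TPM in MII, against 1384 and 877 TPM in EpiC, and fell by 7.57. Its oocyte relative Pabpc1l measured 4.47 and 14.1 TPM in MII, against 2.03 and 2.24 TPM in EpiC. The sum of both was thus far lower in MII, while the share of Pabpc1l was 71.2% and 77.6% of the summed TPM of the pair in MII, against 0.146% and 0.255% in EpiC. Eif4e1b, an oocyte cap-binding protein, measured 406 and 376 TPM in MII, against 0.201 and 0.248 TPM in EpiC, beside Eif4e at 279.7 and 217 TPM in MII, against 326 and 147 TPM in EpiC. Pabpn1l measured 428 and 683 TPM in MII, against 0 and 0 TPM in EpiC, and the nuclear poly(A)-binding protein gene Pabpn1 459.5 and 532 TPM in MII, against 399.7 and 271 TPM in EpiC. Eif4e and Pabpn1 were called higher with TMM (log2 fold changes of 1.89 ± 0.50 and 1.69 ± 0.38), and neither was called with limma on log2(TPM + 1).

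Rec8, Stag3 and Psma8 were the germline members called lower. The cohesin kleisin gene Rec8, which holds sister chromatids together in meiosis, measured 0 and 0 TPM in MII, against 12.2 and 25.7 TPM in EpiC, at least 257-fold lower in MII. Stag3, its meiotic partner, measured 0.295 and 0.493 TPM in MII, against 24.5 and 60.7 TPM in EpiC. The general kleisin gene Rad21 measured 227 and 182 TPM in MII, against 131 and 65.5 TPM in EpiC, with a log2 fold change of 2.56 ± 0.46 that did not pass on the TPM scale (1.13). In MII, Rec8 held 0% and 0% of its pair and Stag3 0.71% and 2.2%. The cohesin gene Smc1b, which was not called, held 6.63% and 10.3% in MII beside Smc1a. For the TFIID subunits, the general gene Taf4 measured 350.0 and 399.6 TPM in MII, against 25.1 and 23.3 TPM in EpiC, and the germline gene Taf4b 15.5 and 10.2 TPM in MII, against 11.4 and 6.79 TPM in EpiC. Both were called higher, Taf4b at 1.97, a call that was lost on the TPM scale (0.46), and its share of the pair was lower in MII. In the TFIIA pair both members were higher, with the germline Gtf2a1l at 36.3 and 53.8 TPM in MII, against 0.363 and 0.655 TPM in EpiC, and the general Gtf2a1 at 336 and 192 TPM in MII, against 12.05 and 13.7 TPM in EpiC. The share of Gtf2a1l was 9.75% and 21.9% of the summed TPM of the pair in MII, against 2.93% and 4.56% in EpiC.

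**Figure D3:**
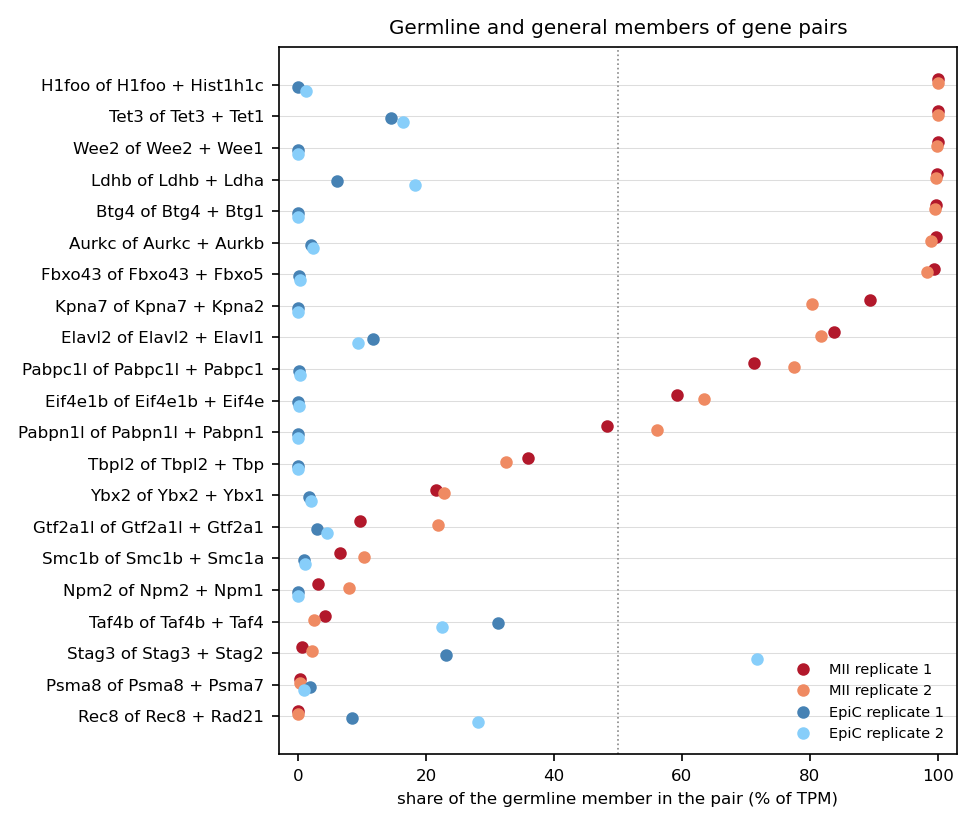
Share of the germline member in the summed TPM of each pair (horizontal axis, %), 1 point per library, pairs ordered by the MII mean. In 11 pairs both MII points lie above 50% and both EpiC points below it, while Rec8, Stag3, Taf4b and Psma8 have both MII points below both EpiC points.

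The oocyte gene families were examined as lists. Of 24 tested genes of the Obox, Oog, Oosp and Fbxw families, 24 were higher, 0 were lower and 0 did not pass (median log2 fold change 16.33, or 15.04 with zero groups at their bound), and they summed to 43392 and 38390 TPM in MII and 1.01 and 1.71 TPM in EpiC. All 6 Tcl1 family genes were higher. Tcl1b1 measured 3062 and 2285 TPM in MII, against 0 and 0.0122 TPM in EpiC. Of 20 tested genes of the subcortical maternal complex and the Nlrp family, 17 were higher, 1 was lower and 2 did not pass (median log2 fold change 9.62). The lower call was lost with DESeq2, on the TPM scale and without MII replicate 2, EpiC replicate 1 or EpiC replicate 2. Nlrp9a measured 215 and 116 TPM in MII, against 0 and 0 TPM in EpiC, at least 22321-fold higher. These lists were chosen as oocyte genes, so their direction is no independent evidence, and members of one family share sequence.

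Genes of the egg surface and cortical granules were less uniform. Of 17 tested, 10 were higher, 5 were lower and 2 did not pass (median log2 fold change 2.63), with 3 lower when either MII library was left out. The Izumo1 receptor gene Izumo1r measured 32.9 and 45.2 TPM in MII, against 0.291 and 0.200 TPM in EpiC. The cortical granule protease gene Astl measured 144 and 361 TPM in MII, against 0 and 0.350 TPM in EpiC. The tetraspanin gene Cd81 measured 1.67 and 3.46 TPM in MII, against 165 and 188 TPM in EpiC. Of 24 double-stranded RNA sensors and Oas genes, 10 were higher, 5 were lower and 9 did not pass (median log2 fold change 0.33). Oas1d, a catalytically inactive relative of the interferon-induced Oas enzymes, measured 2978 and 3757 TPM in MII, against 0.0633 and 0.0174 TPM in EpiC. The receptor gene Ifnar1 measured 0.707 and 1.38 TPM in MII, against 15.3 and 16.4 TPM in EpiC.

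**Figure D4:**
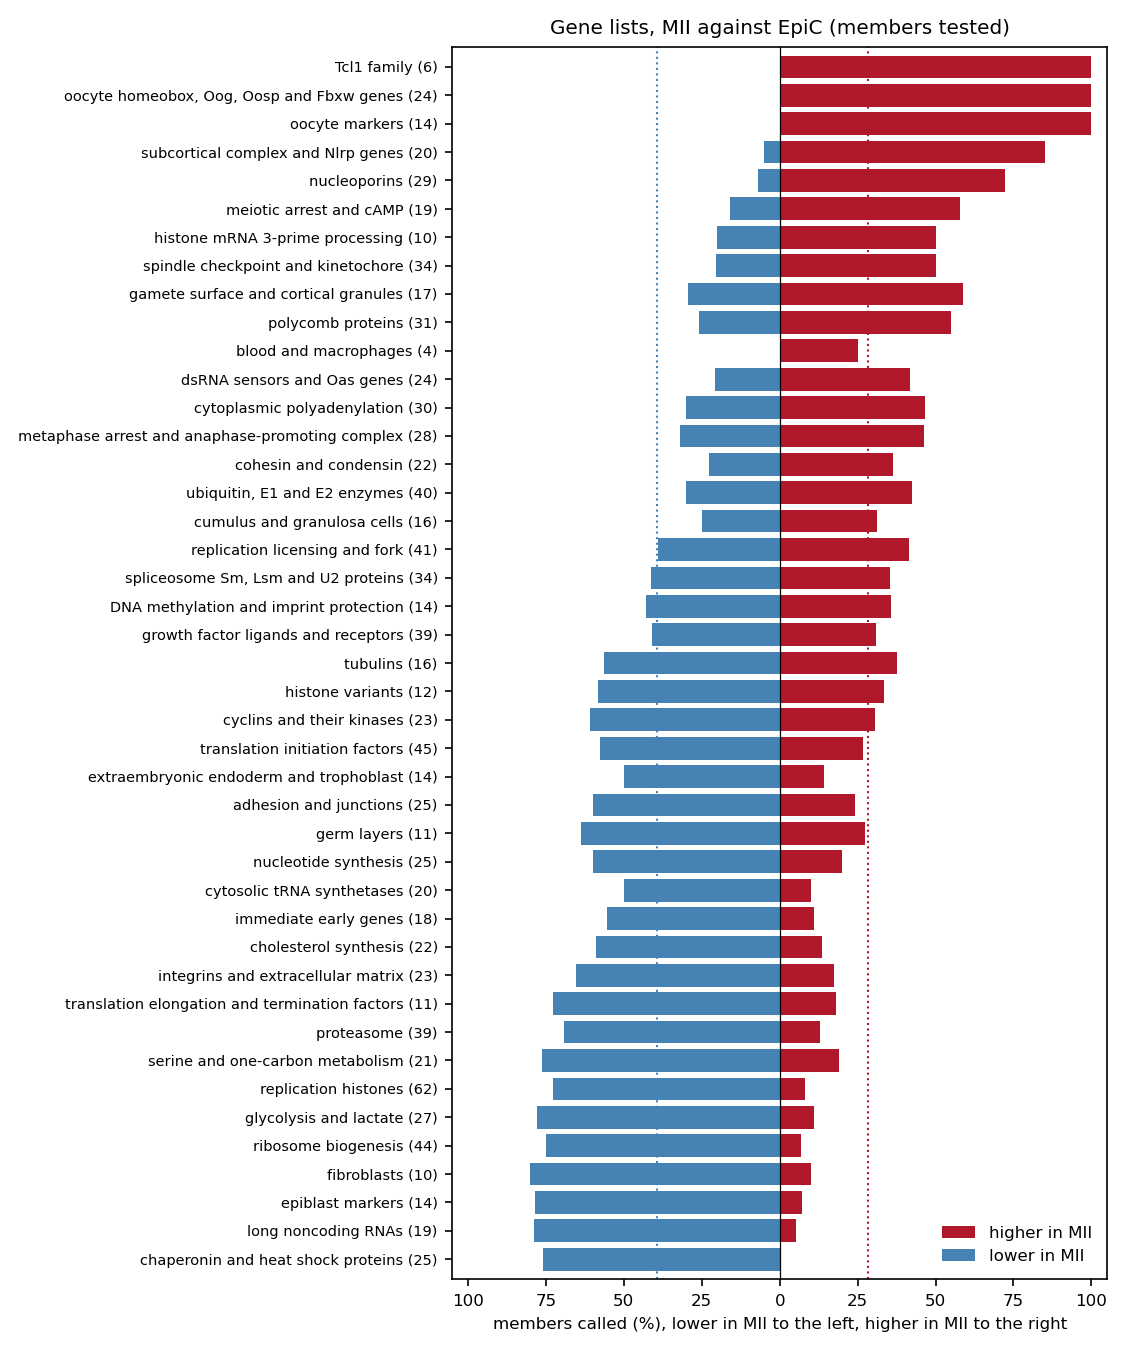
Percentage of the tested members of each gene list called higher in MII (red, to the right) or lower in MII (blue, to the left), with the number of members tested in parentheses and dotted lines at the shares of all genes, 28.4% higher and 39.4% lower. Oocyte lists and nucleoporins reach furthest right of the dotted line, and chaperonins, ribosome biogenesis and glycolysis reach far to the left with few or no members on the right.

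Cell cycle genes moved both ways. Of 23 cyclins, kinases and inhibitors, 7 were higher, 14 were lower and 2 did not pass (median log2 fold change −3.41, or −1.62 with zero groups at their bound), against 4 higher and 15 lower on the TPM scale. The mitotic cyclin gene Ccnb1 measured 1722 and 2040 TPM in MII, against 379 and 261 TPM in EpiC, with a log2 fold change of 4.13 ± 0.42 (adjusted p = 3.84e-05). Ccnd1, a G1 cyclin, measured 0.0197 and 0.0365 TPM in MII, against 112 and 55.0 TPM in EpiC, and fell by 9.85 (adjusted p = 4.86e-06). Its partner Cdk4 measured 0.436 and 3.36 TPM in MII, against 994 and 404 TPM in EpiC. The inhibitor gene Cdkn1a, a p53 target, measured 0.215 and 0.520 TPM in MII, against 66.5 and 254 TPM in EpiC. In none of these 4 genes did the groups overlap, as in 86.4% of all genes tested, and 1 of the 4 was higher in MII.

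Regulators of the metaphase arrest and the anaphase-promoting complex came next. Of 28, 13 were higher, 9 were lower and 6 did not pass (median log2 fold change 0.43). On the TPM scale the split was 6 higher and 14 lower. Mos, the kinase that starts the MAP kinase cascade of the arrest, measured 284 and 738 TPM in MII, against 0.0915 and 0.292 TPM in EpiC. Map2k1, the MAP kinase kinase below it, measured 558 and 688 TPM in MII, against 56.1 and 28.8 TPM in EpiC. Subunits of the complex itself moved both ways. Cdc27 measured 201 and 113 TPM in MII, against 44.99 and 20.3 TPM in EpiC, while Cdc23 measured 3.39 and 3.78 TPM in MII, against 95.6 and 64.0 TPM in EpiC and Anapc13 1.20 and 2.46 TPM in MII, against 124 and 94.0 TPM in EpiC.

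Chromosome segregation genes were measured in 3 lists. Of 34 spindle checkpoint and kinetochore genes, 17 were higher, 7 were lower and 10 did not pass (median log2 fold change 0.74), and the TPM scale gave 10 higher and 14 lower. The checkpoint gene Bub1b measured 1057 and 1674 TPM in MII, against 92.1 and 43.4 TPM in EpiC, whereas Bub1 measured 2.30 and 2.65 TPM in MII, against 89.5 and 24.6 TPM in EpiC and lost its call without MII replicate 1 (−2.52). Within one kinetochore complex, Dsn1 measured 535 and 539.8 TPM in MII, against 26.7 and 25.7 TPM in EpiC and Nsl1 measured 0.421 and 0.690 TPM in MII, against 17.8 and 25.1 TPM in EpiC. These 2 partners of one complex stood on opposite sides. Of 22 cohesin and condensin genes, 8 were higher, 5 were lower and 9 did not pass (median log2 fold change 0.87), against 4 higher and 9 lower on the TPM scale. Pttg1, the securin that restrains separase, measured 4969 and 5116 TPM in MII, against 52.2 and 33.7 TPM in EpiC, with a log2 fold change of 8.28 ± 0.44. The condensin gene Smc2 measured 1.76 and 1.57 TPM in MII, against 71.1 and 32.8 TPM in EpiC.

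Tubulin genes also differed between isotypes. Of 16, 6 were higher, 9 were lower and 1 did not pass (median log2 fold change −1.61), with 5 lower without MII replicate 1. Tubb3, best known as a neuronal β-tubulin, measured 807 and 1203 TPM in MII, against 20.5 and 11.9 TPM in EpiC, and Tubg2, a γ-tubulin of microtubule nucleation, 154 and 219 TPM in MII, against 1.18 and 1.56 TPM in EpiC. Tuba1b, an α-tubulin of most dividing cells, measured 3.59 and 11.0 TPM in MII, against 2373 and 779 TPM in EpiC, and Tubb5 2.70 and 8.68 TPM in MII, against 1316 and 429 TPM in EpiC. All tubulin genes together summed to 1225 and 1821 TPM in MII and 5972 and 2554 TPM in EpiC.

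Replication genes moved both ways. Of 41, 17 were higher, 16 were lower and 8 did not pass (median log2 fold change −0.23), and the TPM scale gave 9 higher and 22 lower. Among origin recognition subunits, Orc6 measured 659.7 and 664 TPM in MII, against 203 and 152 TPM in EpiC and Orc1 116 and 135 TPM in MII, against 34.9 and 25.5 TPM in EpiC. Both MII values exceeded both EpiC values in each, and groups did not overlap in either direction for 86.4% of all genes tested. The catalytic polymerase genes were low: Pold1 measured 0.172 and 0.629 TPM in MII, against 66.2 and 60.6 TPM in EpiC, and Pole 0.236 and 0.599 TPM in MII, against 46.1 and 33.5 TPM in EpiC. The flap endonuclease gene Fen1 measured 0.218 and 1.002 TPM in MII, against 75.6 and 56.8 TPM in EpiC. Rrm2b, a small subunit of ribonucleotide reductase, was higher, at 412 and 232 TPM in MII, against 7.32 and 6.11 TPM in EpiC (log2 fold change 7.81 ± 0.59).

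Replication-dependent histone genes, whose mRNAs end in a stem-loop instead of a poly(A) tail, were mostly low in both groups. Of 62 tested, 5 were higher, 45 were lower and 12 did not pass (median log2 fold change −5.69, or −3.38 with zero groups at their bound). The lower calls numbered 17 without MII replicate 2, 26 without MII replicate 1 and 22 without EpiC replicate 2, and the higher calls 3 when either MII library was left out. Their summed level was 63.3 and 69.8 TPM in MII and 151 and 483 TPM in EpiC, and EpiC replicate 2 also held the most Gm42418. Hist1h3c measured 0 and 0 TPM in MII, against 6.54 and 10.9 TPM in EpiC, and Hist1h2aa, a testis histone gene, 20.2 and 20.3 TPM in MII, against 0.513 and 2.40 TPM in EpiC. How far the choice of RNA for the library sets these levels was not tested.

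The stem-loop lies in these windows of 26 bases from histone genes called lower, with the stem-loop letters in capitals.
Hist1h2ab: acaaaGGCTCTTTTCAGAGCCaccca
Hist2h2ac: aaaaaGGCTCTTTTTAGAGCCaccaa
Hist1h2bk: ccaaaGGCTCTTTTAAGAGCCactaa

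They lie at chr13:23751567-23751592 (plus strand), chr3:96220413-96220438 (minus strand) and chr13:22036295-22036320 (plus strand) on GRCm38. Hist1h2ab lost its call without MII replicate 2 (−9.40), and Hist1h2bk without MII replicate 1 (−2.17) or EpiC replicate 2 (−2.07). Hist2h2ac lost it without MII replicate 1 (−7.48), MII replicate 2 (−7.40) or EpiC replicate 2 (−4.68), and with DESeq2 (−5.33). The protein that binds this loop is encoded by Slbp, which measured 2826 and 2166 TPM in MII, against 149 and 88.0 TPM in EpiC (log2 fold change 6.16 ± 0.48). Lsm11, of the U7 particle that cuts histone mRNA, measured 28.8 and 33.7 TPM in MII, against 6.20 and 4.63 TPM in EpiC. Of 10 genes of histone mRNA processing, 5 were higher, 2 were lower and 3 did not pass (median log2 fold change 0.92), with 1 lower without MII replicate 1 or EpiC replicate 1. Among histone variants, H3f3b measured 1363 and 1112 TPM in MII, against 763 and 472 TPM in EpiC, while H2afz measured 29.8 and 24.7 TPM in MII, against 1225 and 395 TPM in EpiC.

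Translation and ribosome assembly genes were lower in MII in most cases. Of 45 initiation factors, 12 were higher, 26 were lower and 7 did not pass (median log2 fold change −1.82), against 5 higher and 30 lower on the TPM scale. Eif4ebp1, a repressor of cap-dependent translation, measured 1.69 and 2.03 TPM in MII, against 441 and 313 TPM in EpiC. The initiation factor gene Eif1a measured 0.364 and 0.530 TPM in MII, against 147 and 73.1 TPM in EpiC. Eif4e3, a further cap-binding protein, measured 568 and 459.9 TPM in MII, against 4.91 and 3.42 TPM in EpiC. Of 11 elongation and termination factors, 2 were higher, 8 were lower and 1 did not pass (median log2 fold change −3.84). The translocase gene Eef2 measured 9.68 and 12.8 TPM in MII, against 1853 and 1146 TPM in EpiC, and Eef2k, the kinase that inactivates it, 91.4 and 98.1 TPM in MII, against 4.02 and 2.44 TPM in EpiC. The elongation factor and its inhibitor kinase thus stood on opposite sides.

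Of 44 ribosome biogenesis genes, 3 were higher, 33 were lower and 8 did not pass (median log2 fold change −3.78), and the TPM scale gave 0 higher and 38 lower. The box C/D protein gene Nop56 measured 0.829 and 3.60 TPM in MII, against 644 and 687 TPM in EpiC. Ddx21, an RNA helicase of the nucleolus, measured 0.524 and 0.831 TPM in MII, against 226 and 151 TPM in EpiC. Nop56 fell by 6.42 and Ddx21 fell by 6.62 on the log2 scale. Of 20 cytosolic tRNA synthetases, 2 were higher, 10 were lower and 8 did not pass (median log2 fold change −1.37), against 1 higher and 16 lower on the TPM scale. Yars measured 0 and 0.525 TPM in MII, against 84.6 and 57.8 TPM in EpiC, and Farsb 297 and 195 TPM in MII, against 128 and 50.9 TPM in EpiC.

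Protein quality control genes were mostly lower in MII. Of 25 chaperonin and heat shock genes, 0 were higher, 19 were lower and 6 did not pass (median log2 fold change −3.01). In edgeR 1 was higher at an unadjusted p under 0.05, and DESeq2 called 1 higher. Hspa8, the constitutive Hsp70, measured 17.1 and 54.2 TPM in MII, against 3009 and 1443 TPM in EpiC. Of 39 proteasome genes, 5 were higher, 27 were lower and 7 did not pass (median log2 fold change −2.71), against 3 higher and 33 lower on the TPM scale. Psmb10, an immunoproteasome subunit, measured 0.0212 and 0.163 TPM in MII, against 46.7 and 14.1 TPM in EpiC, while the α-ring subunit gene Psma2 measured 646 and 735 TPM in MII, against 390.4 and 152 TPM in EpiC. The activator genes split, with Psme1 at 0.731 and 1.47 TPM in MII, against 116 and 63.6 TPM in EpiC and Psme3 at 264 and 271 TPM in MII, against 169 and 82.2 TPM in EpiC.

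Ubiquitin genes were divided. Of 40, 17 were higher, 12 were lower and 11 did not pass (median log2 fold change 0.41), against 8 higher and 22 lower on the TPM scale. The conjugating enzyme gene Ube2d3 measured 3215 and 2450 TPM in MII, against 378 and 184 TPM in EpiC, and Ube2d2a 1025 and 795 TPM in MII, against 110.2 and 60.6 TPM in EpiC. Rps27a, which encodes ubiquitin fused to a ribosomal protein, measured 2.71 and 12.1 TPM in MII, against 2369 and 1655 TPM in EpiC. Abundant in both groups were Npm1, a nucleolar chaperone, and the translation factor Eif5a, and neither was called. Npm1 measured 1486 and 1226 TPM in MII, against 5241 and 1612 TPM in EpiC (log2 fold change 0.14 ± 0.55, −1.11 with limma on log2(TPM + 1) and −0.44 without EpiC replicate 2). Eif5a measured 714 and 819 TPM in MII, against 1984 and 1329 TPM in EpiC (log2 fold change 0.29 ± 0.36, and −1.09 on the TPM scale, where it passed).

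Of 29 nucleoporins, which build the nuclear pore, 21 were higher, 2 were lower and 6 did not pass (median log2 fold change 1.90), and 10 higher and 5 lower on the TPM scale. Nup35 measured 642 and 708 TPM in MII, against 60.8 and 41.0 TPM in EpiC, and the scaffold gene Nup133 0.0687 and 0.420 TPM in MII, against 62.6 and 26.2 TPM in EpiC. Of 34 spliceosome genes, 12 were higher, 14 were lower and 8 did not pass (median log2 fold change −0.53), with 7 higher without EpiC replicate 2 and 2 higher and 20 lower on the TPM scale. In the edgeR test 35.3% were thus higher and 41.2% lower, near the 28.4% and 39.4% of all genes. The Sm protein gene Snrpb measured 0.916 and 2.29 TPM in MII, against 441 and 261 TPM in EpiC, and Snrpb2, of the U2 particle, 550.1 and 423 TPM in MII, against 135 and 67.00 TPM in EpiC. Of 30 genes of cytoplasmic polyadenylation and tail control, 14 were higher, 9 were lower and 7 did not pass (median log2 fold change 0.60), against 10 higher and 13 lower on the TPM scale. Zar1, an oocyte RNA-binding protein, measured 633 and 655 TPM in MII, against 0.588 and 0.758 TPM in EpiC. The cleavage factor gene Cpsf1 measured 0.0270 and 0.401 TPM in MII, against 56.4 and 40.5 TPM in EpiC.

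Most members of 4 metabolic lists were called lower in MII, each list with exceptions. Summed TPM was lower in MII for glycolysis and nucleotide synthesis, higher for serine and one-carbon metabolism, and overlapped for cholesterol genes. Of 27 glycolysis genes, 3 were higher, 21 were lower and 3 did not pass (median log2 fold change −3.79, or −3.40 with zero groups at their bound), against 1 higher and 22 lower on the TPM scale. The enolase gene Eno1 measured 1.75 and 9.20 TPM in MII, against 1843 and 642 TPM in EpiC, and the glucose transporter gene Slc2a3 0.347 and 0.334 TPM in MII, against 467 and 294 TPM in EpiC. The lactate dehydrogenase subunit gene Ldhb held 99.9% and 99.7% of the summed TPM of the pair in MII, against 6.18% and 18.3% in EpiC, beside Ldha. Ldha fell by 7.005, and lost its call without EpiC replicate 1 (−5.85, adjusted p = 0.0602). Ldhb had a log2 fold change of 5.31 ± 0.40.

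Of 21 genes of serine and one-carbon metabolism, 4 were higher, 16 were lower and 1 did not pass (median log2 fold change −2.65). Their sum was 2778 and 3044 TPM in MII and 2166 and 907 TPM in EpiC. Psat1, of serine synthesis, measured 0 and 0.0571 TPM in MII, against 226 and 50.1 TPM in EpiC. Mat2b, the regulatory subunit of the enzyme that makes S-adenosylmethionine, measured 2153 and 2413 TPM in MII, against 74.8 and 42.7 TPM in EpiC (log2 fold change 6.75 ± 0.49). Of 25 nucleotide synthesis genes, 5 were higher, 15 were lower and 5 did not pass (median log2 fold change −4.25), against 2 higher and 18 lower on the TPM scale. Cad, which starts pyrimidine synthesis, measured 0.143 and 0.139 TPM in MII, against 135 and 121 TPM in EpiC, while Ctps, which makes CTP from UTP, measured 358 and 369 TPM in MII, against 105 and 65.0 TPM in EpiC. Of 22 cholesterol genes, 3 were higher, 13 were lower and 6 did not pass (median log2 fold change −1.87), with 6 higher without EpiC replicate 1. Insig1, which holds back the factors that induce cholesterol synthesis, measured 503 and 495 TPM in MII, against 59.2 and 16.7 TPM in EpiC.

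**Figure D5:**
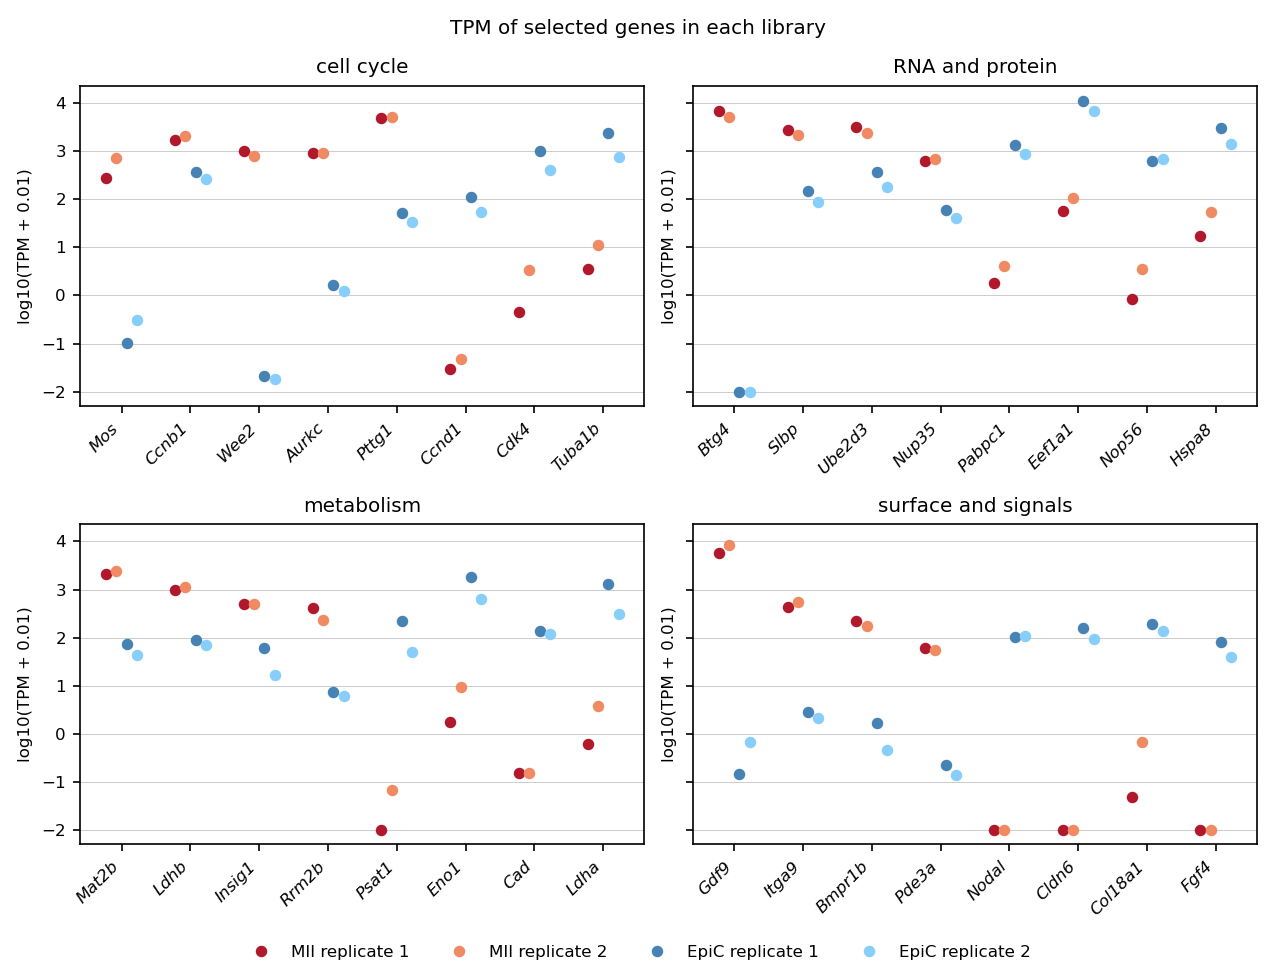
Levels of 32 selected genes as log10(TPM + 0.01) (vertical axis) in 4 panels, 1 point per library, MII points left of EpiC points within each gene. In every gene shown both MII points lie on one side of both EpiC points, as in 86.4% of all genes tested. The points at −2 are libraries with 0 TPM.

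Of 39 growth factors and receptors, 12 were higher, 16 were lower and 11 did not pass (median log2 fold change −0.35). These are 30.8% higher and 41.0% lower, near the 28.4% and 39.4% of all genes. Bmpr1b, a BMP receptor, measured 222 and 176 TPM in MII, against 1.66 and 0.449 TPM in EpiC, and the ligand gene Tgfb2 99.1 and 85.8 TPM in MII, against 0.971 and 1.32 TPM in EpiC. On the other side, Lefty2, an inhibitor of Nodal, measured 0 and 0 TPM in MII, against 27.4 and 27.1 TPM in EpiC. Fgf15 measured 0 and 0 TPM in MII, against 51.8 and 17.7 TPM in EpiC. Of 19 genes of meiotic arrest and cAMP signalling, 11 were higher, 3 were lower and 5 did not pass (median log2 fold change 2.21), against 8 higher and 5 lower on the TPM scale. Pde3a, the phosphodiesterase that milrinone inhibits, measured 60.7 and 56.2 TPM in MII, against 0.213 and 0.129 TPM in EpiC, and Gpr3, the receptor that keeps cAMP high in oocytes, 10.9 and 18.03 TPM in MII, against 0.253 and 0.119 TPM in EpiC.

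Of 25 adhesion and junction genes, 6 were higher, 15 were lower and 4 did not pass (median log2 fold change −2.15), against 2 higher and 17 lower on the TPM scale. Gja4, the connexin between oocyte and granulosa cells, measured 13.6 and 27.5 TPM in MII, against 0.251 and 0.764 TPM in EpiC. Of 23 integrin and matrix genes, 4 were higher, 15 were lower and 4 did not pass (median log2 fold change −2.11). Itga9 measured 429 and 554 TPM in MII, against 2.79 and 2.08 TPM in EpiC, and Itga3 0.00526 and 0.0957 TPM in MII, against 40.2 and 40.0 TPM in EpiC. The laminin gene Lamb1 measured 546 and 952 TPM in MII, against 56.3 and 43.3 TPM in EpiC, and Lama5 0.774 and 0.827 TPM in MII, against 87.0 and 129.7 TPM in EpiC. In the integrins and laminins named, 1 gene each was higher and 1 lower. Their groups did not overlap, as in 86.4% of all genes tested.

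Of 31 polycomb genes, 17 were higher, 8 were lower and 6 did not pass (median log2 fold change 1.31), against 16 higher and 13 lower on the TPM scale. Bmi1, of the Polycomb repressive complex 1, measured 1372 and 759.5 TPM in MII, against 16.3 and 9.79 TPM in EpiC. Phc2 measured 806 and 996 TPM in MII, against 17.9 and 37.6 TPM in EpiC, and its relative Phc1 5.15 and 7.44 TPM in MII, against 376 and 436 TPM in EpiC. The chromodomain gene Cbx7 measured 0.360 and 0.902 TPM in MII, against 129 and 129 TPM in EpiC. Of 14 genes of DNA methylation and imprint protection, 5 were higher, 6 were lower and 3 did not pass (median log2 fold change −0.12), with 3 lower when either MII library was left out. With all libraries 35.7% were higher and 42.9% lower, near the 28.4% and 39.4% of all genes. Dppa3, which protects maternal methylation, measured 3204 and 2166 TPM in MII, against 18.1 and 14.4 TPM in EpiC. Tet3 held 99.98% and 99.96% of the summed TPM of the pair in MII, against 14.5% and 16.3% in EpiC, beside Tet1. Tdg, a glycosylase that removes oxidised methylcytosine, measured 0.0569 and 0.294 TPM in MII, against 91.4 and 54.1 TPM in EpiC.

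Immediate early genes, whose mRNAs are made quickly and decay fast, were 2 higher and 10 lower of 18 in MII, with 6 lower without MII replicate 1. The exceptions were Dusp1, at 102 and 138 TPM in MII, against 21.6 and 41.0 TPM in EpiC, and Fosb, at 6.67 and 6.04 TPM in MII, against 0.148 and 0.538 TPM in EpiC. Myc measured 0.0880 and 0.662 TPM in MII, against 74.9 and 68.0 TPM in EpiC, and Ier2 0.276 and 0.838 TPM in MII, against 113 and 122 TPM in EpiC. Of 19 long noncoding RNA genes, 1 was higher, 15 were lower and 3 did not pass (median log2 fold change −5.48), with 2 higher without EpiC replicate 2. H19, an imprinted RNA, measured 0 and 0 TPM in MII, against 515 and 854 TPM in EpiC, at least 11440-fold lower. Rian, of the imprinted Meg3 locus, measured 0.468 and 0.965 TPM in MII, against 832 and 289.6 TPM in EpiC. The single higher member, D6Ertd527e, measured 3018 and 2775 TPM in MII, against 0.0297 and 0.169 TPM in EpiC, and has a protein-coding annotation in the tables.

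Among all 7535 genes without a protein-coding transcript, 1396 (18.5%) were higher and 2659 (35.3%) lower. Gm1965, of highest fitted log2 fold change at 20 TPM or more, measured 2259 and 2015 TPM in MII, against 0 and 0 TPM in EpiC, at least 178718-fold higher. RP23-323L3.5, which had EpiC reads and a log2 fold change of 19.60 ± 0.93, measured 9609 and 9859 TPM in MII, against 0.0158 and 0.0635 TPM in EpiC, among the 10 most abundant genes of MII. AU016765 measured 458 and 420.5 TPM in MII, against 0 and 0 TPM in EpiC. The lowest included H19 and ribosomal protein copies such as Rps13-ps1, at 0 and 0 TPM in MII, against 1086 and 755 TPM in EpiC, which share their sequence with the parent genes and are uncertain.

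Transcript usage, the division of a gene's reads among its transcripts, was tested with diffSpliceDGE of edgeR. It changed in 3746 of 11925 genes tested (31.4%), and in 1243 without MII replicate 2, 1897 without MII replicate 1, 2078 without EpiC replicate 2 and 2970 without EpiC replicate 1. Of 2163 genes with at least 20 mean TPM in both groups, 373 had another most abundant transcript in MII than in EpiC, and 276 of these passed. In 170 of the 276 both leading transcripts were coding, in 29 the MII one alone and in 67 the EpiC one alone. The MII transcript was the shorter in 180 and the longer in 96. The tables hold no error of assigning reads to transcripts.

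Of the 8 genes with the largest change in share, 4 passed in each of 4 fits that left out 1 library. In Cth, the enzyme gene that makes cysteine from cystathionine, the noncoding transcript Cth-003 held 96.9% and 97.5% of the TPM in MII, against 0.945% and 5.75% in EpiC. The coding Cth-001 held 3.07% and 2.54% in MII, against 97.5% and 88.4% in EpiC. The summed level of Cth, 117 and 91.1 TPM in MII, against 63.4 and 15.6 TPM in EpiC, therefore does not measure coding mRNA in MII. In Hbs1l, a ribosome rescue factor, the coding transcript Hbs1l-202 held 97.5% and 95.6% in MII, against 12.4% and 8.16% in EpiC, where Hbs1l-201 led. In Nfyc, a subunit of the CCAAT-binding factor NF-Y, Nfyc-002 held 95.4% and 64.9% in MII and close to 0% in both EpiC libraries. In Psap, the precursor of the saposins, Psap-204 held 70.6% and 61.8% in MII, against 1.56% and 5.05% in EpiC.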

How the data were processed

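Per the submitters' processing notes, reads were quantified with kallisto 0.43 and the build was mm10. The authors deposited, for each library, an estimated count and a TPM value (a level scaled for transcript length and library depth) for each of 117667 transcripts, and both were summed per gene here. Estimated counts were rounded, Gm42418 was left out, and edgeR 4.0.16 in R 4.3.3 tested 25016 genes with filterByExpr, TMM factors and a robust quasi-likelihood fit with 1 mean per group over all 8 libraries. The SE of a log2 fold change was taken as its size divided by the square root of F. limma 3.58.1 used log2(TPM + 1) or log2(TPM + 0.1), for genes with a TPM of at least 1 in 2 libraries, and DESeq2 1.42.0 was a further alternative. TPM was used as deposited, so that Gm42418 lowers the other TPM values of a library. In counts simulated for this comparison on 25016 genes, 100 genes were changed by a log2 fold of 3 and 100 by 5, equally in both directions. All other genes had equal means in every group. Of the changed genes, 95% and 100% were called, with 10 false calls. Far more genes were called in the data, so the simulation cannot tell how the scaling behaves there.

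The members and lists were chosen with earlier results of these data known. Named genes are the 12 highest and 12 lowest log2 fold changes among called coding genes of at least 20 mean TPM whose groups did not overlap, the members of the pairs, up to 4 called genes per direction and list with at least 5 mean TPM, the 10 most abundant genes per group, the 8 most abundant genes with an absolute log2 fold change under 0.5, the 8 largest changes in transcript share, and the 5 highest and 5 lowest genes without a protein-coding transcript. Marker genes at or near 0, histone genes with a sequence shown and genes shown beside a relative were named outside this rule. Lower bounds of a fold use a floor of 3 counts in each library at 0. 3′ UTRs and coordinates were read from GENCODE M21 on GRCm38. The choice of the most abundant matching transcript was made after seeing that a stricter match covered 79.8% of genes. Alternatives were another normalization, DESeq2, TPM with limma, no count filter, a length offset, fewer libraries or genes, Gm42418 kept and each library left out.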

Additional observations from a re-analysis of the deposited data

How the results depend on the processing

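Counts and shares kept within 1.5 times, or within their spread, under most alternatives. Genes called higher numbered 7112, and 4372 with limma on log2(TPM + 1) or 4534 on log2(TPM + 0.1). They were 6527 to 6960 with 1 library left out, and lower calls, 9858 in all, were then 7015 to 9625. Relative log expression, DESeq2, no count filter, a length offset, only the 4 libraries compared, protein-coding genes alone and Gm42418 kept gave 5563 to 7646 higher and 7605 to 10165 lower. Transcript usage changed in 3746 genes, in 1243 to 2970 with 1 library left out, and in 2783 when transcripts needed 5% of their gene. The motif share was 69.2% in higher and 48.0% in lower genes anywhere in the 3′ UTR. It was 29.1% and 14.5% for genes called by limma on log2(TPM + 1), and 28.6% for higher genes on log2(TPM + 0.1). The sign turned with limma for Cdh1 (−0.42 and −0.43), Eif5a (−1.09 in both) and Npm1 (−1.11 in both). With 1 library left out, Npm1 ranged from −0.44 (without EpiC replicate 2) to 1.11, Mir6236 from −1.75 to 1.33 (without EpiC replicate 2), Fshr from 0 (without MII replicate 2) to 8.78 and Lhcgr from −2.22 (without MII replicate 2) to 10.3. The cause was not tested beyond the shift of the median log2 fold change of −1.09 between the scales. Replicate numbers do not pair MII with EpiC by the labels, and deviations of same-numbered libraries correlated at 0.0865 across genes between MII and EpiC, at 0.395 between MII and germinal vesicle oocytes, and at 0.763 between EpiC and embryonic stem cells. A replicate block gave 7412 higher and 10549 lower genes and 4134 genes of changed usage. Total estimated counts were 47463546 to 196788239 per library, and a group with 0 counts gives a bound of the fold alone.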
